A study of Mus musculus with 6 samples.

Results

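The 3 measured ID genes (inhibitors of DNA binding) and 7 genes of the TGF-beta pathway were followed through the response of mouse macrophages to lipopolysaccharide (LPS, a component of the outer membrane of Gram-negative bacteria). The 10 genes were picked by name from the 17904 genes of the expression table, because Id1 and Id3 differed between the genotypes after LPS. The values that chose them are those of the libraries labelled Setd2 knockout (KO) set against wild type (WT), so every KO against WT value below is a description and has no test. All 10 genes were among the 11549 that reached 1 FPKM (fragments scaled to transcript length and library size) in at least 1 library, which is what "measured" means here.

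RNA was sequenced from bone marrow-derived macrophages, cells grown out of marrow of C57BL/6 mice aged 8 weeks during 5 days with the growth factor M-CSF. The groups were KO at 0 h, KO after 12 h and KO after 24 h with LPS at 100 ng/ml, and WT at 0, 12 and 24 h in the same way. With 1 library in each of the 6 groups, a replicate error cannot be given for any value. The labels do not describe the Setd2 allele, nor say whether libraries share an animal or a culture.

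ID proteins are helix-loop-helix proteins without a DNA-binding basic region. They pair with E proteins and keep them off their E-box sites, and are known as brakes on differentiation. Ligands of the TGF-beta superfamily bind receptor kinases that phosphorylate SMAD proteins: TGF-beta itself acts mainly through SMAD2 and SMAD3, and bone morphogenetic proteins (BMPs) through SMAD1 and SMAD5, for which the ID genes are classical targets. In macrophages TGF-beta is known as a restraint on inflammatory activation and as a signal for tissue-resident identity.

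Of the library-wide checks, Setd2 itself (a methyltransferase of histone H3) stood at 9.96, 9.16 and 5.11 FPKM in the KO-labelled libraries at 0, 12 and 24 h, and at 7.83, 8.68 and 7.51 FPKM in the WT libraries. Setd2 was thus not lower in the KO-labelled libraries at 0 and 12 h, and the reason was not tested. FPKM is summed over a whole gene and the allele is not described. These values are therefore no check of the genotype labels, on which each direction below rests. Depth was estimated from the spacing of low FPKM values, which single reads set, with an assumed read length of 50 nt, and came to 21760000 to 22480000 mapped reads per library. All 7 macrophage markers were measured in the series, with summed levels of 2406 to 3643 FPKM in the KO-labelled libraries and of 2454 to 4492 FPKM in WT. Of the 3 B cell and the 2 T cell markers in the table, 0 were measured. Differences between libraries followed transcript length, with a Spearman rho across 5584 genes of 0.61 at 0 h, 0.16 at 12 h and -0.41 at 24 h between the KO minus WT difference and length. Values with that trend removed are therefore given where they change a reading.

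The 3 ID genes lie apart in the genome (GRCm38), Id1 on chromosome 2 at 152736251 to 152737410, Id2 on chromosome 12 at 25093799 to 25096092, and Id3 on chromosome 4 at 136143822 to 136145392. The 250 bases before the start of Id2 and Id3 are shown, with motifs of the pathway in capitals. All 3 ID genes were lower after 24 h of LPS in both genotypes, but no window was available for Id1. The motifs searched on both strands were GGCGCC (the core of the BMP response element), CAGAC (a core motif of the SMAD binding element; GTCTG on the other strand) and CANNTG (the E-box, which E proteins bind). The sequences, from RefSeq on GRCm38.p6, are chr12:25096093-25096342 on the minus strand for Id2 and chr4:136143572-136143821 on the plus strand for Id3.
Id2: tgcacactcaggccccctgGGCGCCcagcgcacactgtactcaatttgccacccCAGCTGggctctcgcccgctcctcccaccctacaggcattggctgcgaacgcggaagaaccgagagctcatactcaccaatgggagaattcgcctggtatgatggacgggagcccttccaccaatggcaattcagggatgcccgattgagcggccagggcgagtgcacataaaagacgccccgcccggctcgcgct
Id3: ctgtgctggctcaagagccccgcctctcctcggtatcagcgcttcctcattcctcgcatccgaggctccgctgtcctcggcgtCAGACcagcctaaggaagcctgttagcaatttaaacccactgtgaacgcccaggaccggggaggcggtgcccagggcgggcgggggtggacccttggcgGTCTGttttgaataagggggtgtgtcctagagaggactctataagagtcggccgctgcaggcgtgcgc
The Id2 window held 1 GGCGCC and 1 E-box, and the Id3 window held 2 copies of CAGAC. Neither of these overlapped another motif. Of all 32851 promoter windows of this length, 9.59% held GGCGCC, 42.2% held CAGAC and 66.2% held an E-box. No window of Id1 or Smad7 was searched, so the counts that follow leave both genes out and say nothing about them. Among the other 8 of the 10 genes, 2 held GGCGCC (Id2 and Tgfbr1), 4 held CAGAC and 3 an E-box in at least 1 of their windows. Counted by window, as those shares are, 2 of 13 held GGCGCC, 6 held CAGAC and 5 an E-box. A match is a description of these letters, not a binding site.

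The ID genes differed most between the libraries labelled KO and WT at 24 h with LPS. For Id2 this was hardly so with the length trend removed (0.71 at 24 h and 0.68 at 0 h). Id1 and Id3 were several-fold higher in the KO-labelled library at that time, and Id2 was higher by less than 2-fold. At 12 h Id2 and Id3 were nearly level between the genotypes and Id1 was lower in the KO-labelled library. By the 2-fold rule (a difference of at least 1 in log2(FPKM + 1)) Id1 and Id3 passed at 24 h and no other of the 10 genes passed at any time, apart from the alternatives named below.

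Id1 stood at 39.6, 15.0 and 17.6 FPKM in the KO-labelled libraries at 0, 12 and 24 h, and at 22.8, 23.7 and 2.20 FPKM in WT. The KO-labelled level was above WT at 0 h, below it at 12 h and above it again at 24 h. On the log2(FPKM + 1) scale the differences were 0.77, -0.63 and 2.54. At 24 h the ratio was 8.01, with a 95% interval of 5.82 to 11.3 from about 351 reads in the KO-labelled and 43 reads in the WT library. That interval, and those below, are exact binomial ones on reads rebuilt from the depth estimate, and cover counting error only. With the length trend removed, Id1 was also past the 2-fold rule at 0 h, with a difference of 1.23, and stood at -0.55 and 2.30 at 12 and 24 h.

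Id3 had 100.9, 37.2 and 18.5 FPKM in the KO-labelled libraries and 179.1, 38.0 and 2.52 FPKM in WT. It was lower in the KO-labelled library at 0 h, level at 12 h and higher at 24 h, with differences of -0.82, -0.03 and 2.47. The 24 h ratio was 7.33 (5.71 to 9.62), from about 510 and 68 reads. In WT, the 24 h level was 1.41% of the 0 h level, against 18.3% in the KO-labelled libraries. That WT decline was the third from the bottom of the 11549 measured genes. The WT 24 h library also entered the contrast that chose Id3, so nothing is read from that rank.

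Id2, known for its part in dendritic and natural killer cell development, was the most abundant of the family by mean FPKM. It had 148, 121 and 75.0 FPKM in the KO-labelled libraries, against 116, 127 and 40.1 FPKM in WT. The differences were 0.35, -0.07 and 0.89. The 24 h ratio of 1.87 (1.74 to 2.02) was short of the 2-fold rule, which it passed with trimmed-mean scaling (1.05). With the length trend removed the differences were 0.68, -0.01 and 0.71, so that at 24 h was hardly larger than that at 0 h. Id4 stayed under 1 FPKM in all 6 libraries.

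**Figure D1:**
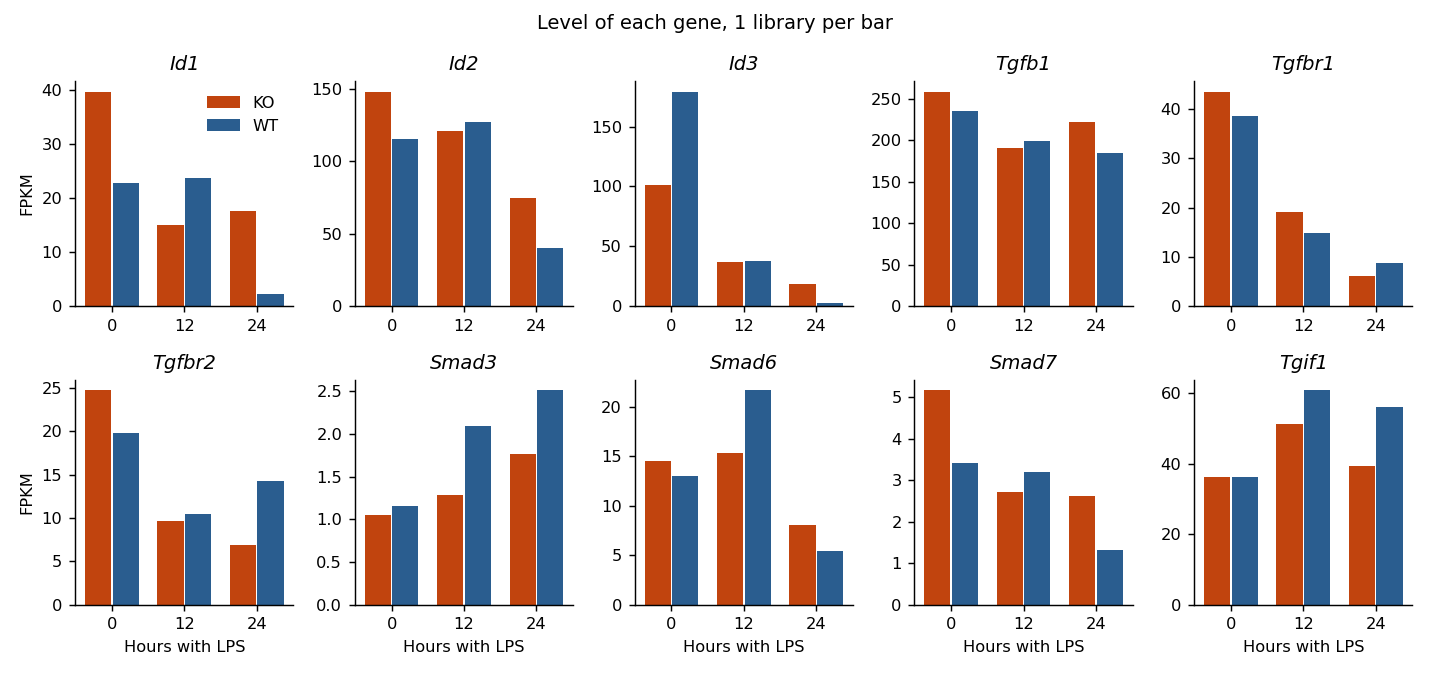
FPKM (y axis, linear, a scale per panel) of the 10 genes at 0, 12 and 24 h with LPS (x axis), with KO-labelled libraries in orange and WT in blue; each bar is 1 library, with no error bar. Id1 and Id3 nearly vanish from the WT library at 24 h (2.20 and 2.52 FPKM) and stay at 17.6 and 18.5 FPKM in the KO-labelled one, while Tgfb1 lies between 184 and 258 FPKM in all libraries.

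Tgfb1, the ligand, was abundant and differed little. It stood at 258, 191 and 222 FPKM in the KO-labelled libraries and at 236, 199 and 184 FPKM in WT. The differences of 0.13, -0.06 and 0.27 were all far from the 2-fold rule. The other ligands of the fixed list were mostly silent, and 8 of its 12 members were not measured, among them Bmp2, Bmp4 and Bmp6. Inhba, which encodes a subunit of activin, was the 1 called ligand. It had 1.40, 67.8 and 36.2 FPKM in the KO-labelled libraries and 0.25, 24.45 and 7.55 FPKM in WT, with differences of 0.94, 1.43 and 2.12 (1.02 at 0 h with the length trend removed).

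The 2 receptor genes were low at 24 h in the KO-labelled library. Tgfbr1, the type I receptor kinase, had 43.55, 19.2 and 6.13 FPKM in the KO-labelled libraries and 38.6, 14.9 and 8.81 FPKM in WT. Tgfbr2, the type II receptor that binds the ligand first, had 24.7, 9.70 and 6.90 FPKM in the KO-labelled libraries and 19.8, 10.5 and 14.2 FPKM in WT. The Tgfbr2 levels were close at 0 and 12 h and apart at 24 h, where the ratio was 0.485 (0.447 to 0.526) and the difference -0.95. Its transcripts are long (a mean of 5784 nt in GENCODE M21), and the 24 h difference was -0.70 with the length trend removed, while with a pseudocount of 0.1 it passed the 2-fold rule at -1.03. For Tgfbr1 the 24 h difference was -0.46, and -0.36 with the trend removed.

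Smad3, which carries the TGF-beta signal, was the least expressed of the 10, at 1.05, 1.29 and 1.77 FPKM in the KO-labelled libraries and 1.16, 2.09 and 2.51 FPKM in WT. The KO-labelled level was below WT at each time, with differences of -0.08, -0.43 and -0.34. The inhibitory SMADs, which block receptors and are themselves induced by the pathway, were also higher in the KO-labelled library at 24 h, without passing the rule. Smad6, which mainly restrains BMP signals, had 14.5, 15.3 and 8.02 FPKM in the KO-labelled libraries and 13.02, 21.6 and 5.45 FPKM in WT. Smad7, which restrains both arms, had 5.17, 2.73 and 2.62 FPKM in the KO-labelled libraries and 3.42, 3.20 and 1.31 FPKM in WT. At 24 h the ratios were 1.47 (1.28 to 1.69) for Smad6 and 2.0 (1.61 to 2.51) for Smad7, whose difference on the log2(FPKM + 1) scale was 0.65. At 12 h both were lower in the KO-labelled library, by -0.47 and -0.17. Tgif1, a homeodomain corepressor of SMAD2 and SMAD3, had 36.3, 51.1 and 39.4 FPKM in the KO-labelled libraries and 36.3, 60.7 and 56.0 FPKM in WT. It was level at 0 h and lower by 0.24 and 0.49 in the KO-labelled libraries at 12 and 24 h.

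**Figure D2:**
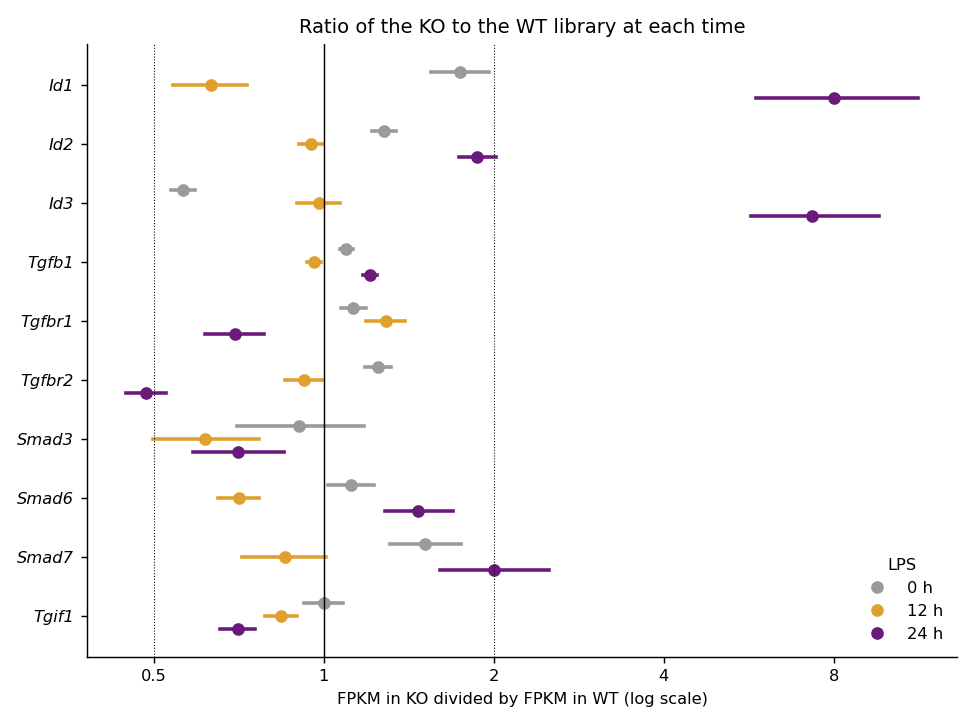
Ratio of FPKM in the KO-labelled to the WT library (x axis, log scale, no pseudocount) for each gene at 0 h (grey), 12 h (yellow) and 24 h (purple), with 95% intervals for counting error only and dotted lines at 2-fold. The 24 h points of Id1 (8.01) and Id3 (7.33) stand far to the right, and that of Tgfbr2 (0.485) is the lowest.

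Counted by the 2-fold rule, 0 of the 10 genes were called at 0 h, where 4.23% of measured genes were (2.96% higher, 1.26% lower), and 0 at 12 h, where 2.04% were (1.32% higher, 0.727% lower). At 24 h 2 of 10 were called, both higher, where 4.15% of measured genes were called in either direction, 2.22% higher and 1.93% lower. Because that contrast chose the genes, nothing is read from the 24 h count. The medians over the 10 genes were 0.16, -0.14 and 0.38, beside 0.02, -0.06 and -0.12 over all measured genes. Trimmed-mean scaling moved the median of all genes at 24 h by 0.12. Whether a difference reflects fewer cells of a type or less RNA per cell cannot be told apart in these bulk libraries.

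Markers of other cells were read as summed levels. At 24 h the 3 megakaryocyte markers summed to 690 FPKM in the KO-labelled and 251 FPKM in the WT library, almost all of it Pf4, a chemokine gene that macrophages also express. The 4 endothelial markers summed to 8.82, 23.2 and 6.08 FPKM in the KO-labelled libraries and 3.49, 14.9 and 6.79 FPKM in WT at 0, 12 and 24 h. The 4 fibroblast markers summed to 10.8 and 11.8 FPKM in the KO-labelled and WT libraries at 24 h, and Dcn alone was called higher (1.13). The 5 neutrophil markers summed to 41.6, 36.7 and 63.8 FPKM in the KO-labelled libraries and 74.9, 80.5 and 78.6 FPKM in WT at 0, 12 and 24 h. Their median difference was -0.76, -0.47 and -0.23, and -0.13, -0.51 and -0.46 with the length trend removed. Of all these markers, 0 were at 0 in every library. Of the 7 macrophage markers, 2 were called lower at 24 h, Itgam (-1.24) and Mertk (-1.01), where 1.93% of measured genes were called lower. Mertk did not pass with the length trend removed (-0.82) or with trimmed-mean scaling (-0.87), while Itgam did (-1.005 and -1.09). The part of other cells in the ID gene differences was not tested.

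The genes were chosen by the contrast of the genotypes after LPS, not by the change over time. Both use the same 12 and 24 h libraries, so the time results of Id1 and Id3 are not independent of that choice. The response to LPS was tested with limma on all 6 libraries with genotype and time as terms, where the 2 genotypes stand in for replicates of a time. The error is then the disagreement between genotypes. It is large for Id1 and Id3, and is also what chose them. Both times are set against the same 0 h libraries. At 24 h, 6 of the 10 genes passed an adjusted p of 0.05 in limma, all lower. Of the 11547 genes tested 34.5% passed at that time, 2913 lower and 1073 higher. At 12 h, 3 passed, Tgfbr1 and Tgfbr2 lower and Tgif1 higher. Of the genes tested 42.3% passed at 12 h, 3525 lower and 1358 higher.

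At 24 h of LPS both receptors, the inhibitory SMADs, Id1, Id2 and Id3 were lower in macrophages of both genotypes, though Tgfbr2 only slightly in WT. The Tgfbr2 difference was -0.45 in the WT and -1.70 in the KO-labelled libraries, and -0.17 and -1.27 with trimmed-mean scaling. Tgfbr1 fell by 2.33 ± 0.24 (log2 scale, SE) with an adjusted p of 0.000671 in limma, and its adjusted p was at most 0.00381 under all 14 alternatives, those that left out 1 library included. Id3 fell by 4.03 ± 0.70 (limma adjusted p = 0.00693), with a difference of -2.39 in the KO-labelled and of -5.68 in the WT libraries. Its adjusted p in limma was 0.117 without the KO-labelled 0 h library, 0.189 without the WT 0 h library and 0.0555 with no minimum FPKM, and under 0.05 in the other 11 alternatives. Id2 fell by 1.24 ± 0.26 (limma adjusted p = 0.0120), and kept an adjusted p under 0.05 with any 1 library left out.

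Tgfbr2 fell by 1.08 ± 0.30 (limma adjusted p = 0.0343), Smad6 by 0.95 ± 0.26 (0.0308) and Smad7 by 0.85 ± 0.25 (0.0382). Each of these calls was lost in some alternatives. Without single libraries the limma adjusted p ranged from 0.000895 to 0.158 for Tgfbr2 (highest without the KO-labelled 0 h library), from 0.00617 to 0.0962 for Smad6 and from 0.0202 to 0.142 for Smad7 (both highest without the WT 24 h library). Id1 averaged -2.01 ± 0.66 and missed the threshold (limma adjusted p = 0.0571), with a difference of -1.12 in the KO-labelled and of -2.89 in the WT libraries. It passed in 5 of 14 alternatives. Leaving out 1 library gave limma adjusted p-values for Id1 of 0.00878 without the KO-labelled 24 h, 0.0123 without the KO-labelled 12 h and 0.0126 without the WT 12 h library, and of 0.504 without the KO-labelled 0 h, 0.483 without the WT 0 h and 0.274 without the WT 24 h library. The effect lay between -3.24 (without the KO-labelled 24 h library) and -0.77 (without WT 24 h). Smad3, at 0.57 ± 0.19 (0.0623), Tgif1, at 0.36 ± 0.20 (0.191), and Tgfb1, at -0.29 ± 0.21 (0.314), did not pass in limma either; with trimmed-mean scaling the Tgfb1 effect turned to 0.0953, with a limma adjusted p of 0.806.

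At 12 h Tgfbr1 fell by 1.23 ± 0.24 (limma adjusted p = 0.00776) and Tgfbr2 by 1.06 ± 0.30 (0.0302), while Tgif1 rose by 0.60 ± 0.20 (0.0468). Leaving out the WT 12 h library took the limma adjusted p to 0.138 for Tgfbr1, 0.219 for Tgfbr2 and 0.319 for Tgif1. Without the KO-labelled 12 h library Tgfbr2 had 0.146 and Tgif1 0.326, and without the KO-labelled 0 h library Tgfbr2 had 0.135; without the WT 0 h library Tgif1 had 0.194. Id1 and Id2 had hardly moved in WT at 12 h (0.06 and 0.13), whereas Id1 was already lower by 1.35 in the KO-labelled libraries. For Id3 the 12 h difference was -1.42 in the KO-labelled and -2.21 in the WT libraries, with a limma adjusted p of 0.0818 over both. Its limma adjusted p was 5.42e-05 without the KO-labelled 24 h and 5.87e-05 without the WT 24 h library. It was 0.208 without the KO-labelled 0 h, 0.344 without the KO-labelled 12 h, 0.649 without the WT 0 h and 0.140 without the WT 12 h library. The effect lay between -2.83 (without the KO-labelled 0 h library) and -0.79 (without WT 0 h).

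The authors' FPKM scaling sets the size of these responses. Over all measured genes the median response was -0.36 at 12 h and -0.39 at 24 h in the KO-labelled libraries, and -0.28 and -0.25 in WT. Trimmed-mean scaling, which matches libraries on the bulk of their genes, brought these medians to -0.01, 0.00, -0.02 and 0.00 in the same order. With it, the 24 h difference of Tgfbr1 was -2.21 in the KO-labelled and -1.73 in the WT libraries, and that of Id3 was -1.93 and -5.40. The limma adjusted p was then 0.0621 for Id2, 0.137 for Smad6, 0.140 for Smad7 and 0.1001 for Tgfbr2 at 24 h, and 0.0905 for Tgfbr2 at 12 h. Smad3 (0.0214) and Tgif1 (0.0298) passed at 24 h, both higher.

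By the 2-fold rule within each genotype, 4 of 10 genes were called lower in the KO-labelled libraries at 12 h, where 26.1% of measured genes were called, 8.63% higher and 17.5% lower. At 24 h 4 of 10 were called lower in those libraries, where 29.1% of measured genes were called, 7.55% higher and 21.6% lower. In WT 2 of 10 were called lower at 12 h, where 27% of measured genes were called, 9.64% higher and 17.4% lower. At 24 h 5 of 10 were called lower in WT, where 21.5% were called, 7.65% higher and 13.9% lower. Id3 is among the calls in each of these counts, and Id1 in all but WT at 12 h. The contrast that chose these genes uses the same libraries after LPS, so nothing is read from the counts. With trimmed-mean scaling the 12 h count in the KO-labelled libraries was 1, Id3, and the 24 h count there was 3, without Id1 (-0.67). In WT, that scaling gave 2 lower and 1 higher at 12 h (Tgif1, 1.04), and 4 lower at 24 h, without Smad6 (-0.85). The unscaled medians of the 10 genes were -0.58 and -0.88 in the KO-labelled and -0.01 and -1.03 in the WT libraries. The 24 h responses of the genotypes lay furthest apart for Id3 (3.29 less decline in the KO-labelled libraries), Id1 (1.77) and Tgfbr2 (-1.25, a deeper decline). With the length trend removed these gaps were 2.78, 1.07 and -0.66, and Tgif1 (-0.85, against -0.49 before) then lay further apart than Tgfbr2. No test of the gap was made, as each genotype has 1 library per time.

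**Figure D3:**
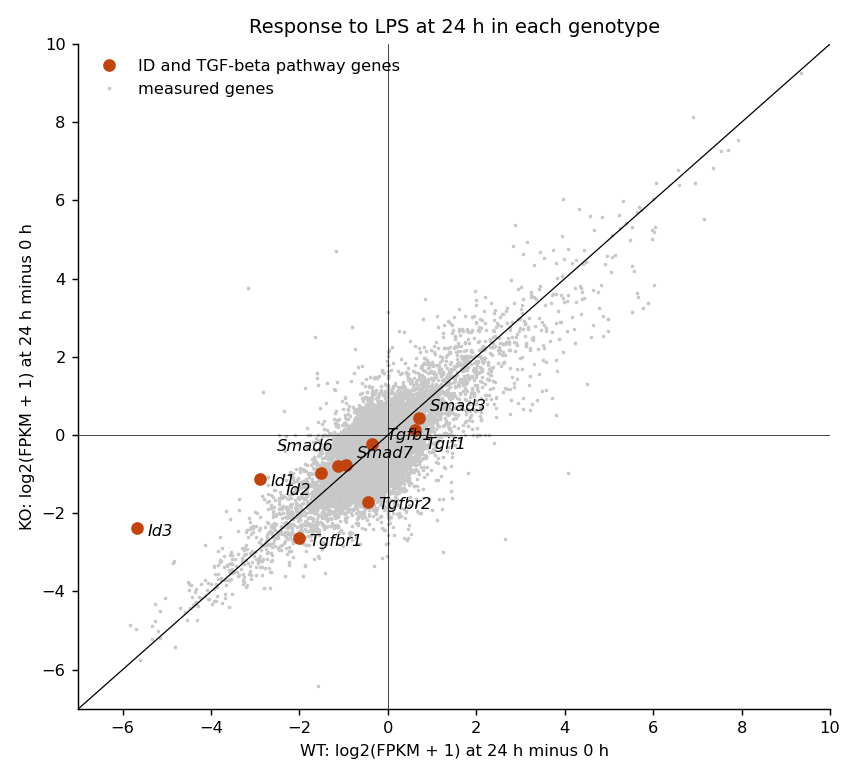
Difference in log2(FPKM + 1) between 24 h and 0 h in the WT (x axis) and the KO-labelled libraries (y axis), with the 10 genes in orange over all measured genes in grey and the line of equal response. Id3 (-5.68 in WT, -2.39 in KO) and Id1 (-2.89 and -1.12) lie above the line, and Tgfbr2 (-0.45 and -1.70) below it.

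The rest of the pathway was read from lists of ligands, receptors, SMADs, inhibitors, activators, targets and helix-loop-helix partners. They hold 74 further genes in the table, of which 52 were measured. Of these 52, 0 were called at 0 h, 3 higher and 1 lower at 12 h, and 2 higher and 2 lower at 24 h in the KO-labelled libraries. Measured genes as a whole were called higher in 1.32% and lower in 0.727% of cases at 12 h, and in 2.22% and 1.93% at 24 h. The median of the 52 genes was 0.15, 0.05 and -0.25.

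Among known BMP targets, 7 of 10 were measured and 3 were called higher at 24 h, the chosen Id1 and Id3 with Hamp. Hamp, the gene of the iron hormone hepcidin and a classical BMP target in liver, had 0.25, 11.7 and 1.69 FPKM in the KO-labelled libraries and 0.12, 1.62 and 0 FPKM in WT, where it is listed at 0 at 24 h. It was higher in the KO-labelled library at 12 h by 2.28, when Id1 was lower there, so the 2 targets did not move together at that time. At 24 h 6 of the 7 measured BMP targets had a positive difference, with a median of 0.89, but 5 of those 6 are among the 10 chosen genes. Bambi, a decoy receptor, was the exception at -0.29. The 8 targets of SMAD2 and SMAD3, which include Smad7, had medians of 0.39, 0.17 and 0.28. Tgfbi, the most abundant of these, differed by 0.12, -0.55 and 0.39.

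Genes that depend on TGF-beta in tissue macrophages had a median of -0.40 over 7 measured genes at 24 h. Tmem119, a microglial marker, had 2.69, 4.97 and 6.04 FPKM in the KO-labelled libraries and 2.30, 16.4 and 15.7 FPKM in WT, and was called lower at 12 h (-1.54) and 24 h (-1.24). Cx3cr1, the fractalkine receptor, had 35.8, 5.18 and 2.93 FPKM in the KO-labelled libraries and 51.3, 11 and 6.21 FPKM in WT, short of the rule at each time. Of 8 measured receptors, 1 was called, the activin receptor gene Acvr1b, with 7.01 FPKM in the KO-labelled and 18.5 FPKM in the WT library at 24 h (-1.28). Eng and Acvrl1, which encode an endothelial-type receptor pair for BMP9, were higher by 0.87 and 0.48 at that time, and Eng passed the rule with trimmed-mean scaling (1.02). The 5 measured signal-carrying SMADs had 0 calls and medians of 0.03, -0.19 and -0.34, with Smad4, the shared partner, at 7.76 FPKM in the KO-labelled and 13.55 FPKM in the WT library at 24 h (-0.73). The 13 measured inhibitors and the 9 measured genes of latency and activation had 0 calls in any KO against WT comparison. Thbs1, a matrix protein that can activate latent TGF-beta, came closest at 24 h, with 156 FPKM in the KO-labelled and 79.05 FPKM in the WT library (0.97, and past the rule at 1.25 with the length trend removed and 1.13 with trimmed-mean scaling).

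The partners of the ID proteins and related helix-loop-helix factors had 7 of 10 members measured. All 7 had a negative KO minus WT difference at 24 h, as did 7096 of the 11549 measured genes. Their median was -0.48 with 0 called, and was -0.37 with the length trend removed and -0.34 with trimmed-mean scaling. Tcf4 was near 0, and turned to 0.25 and 0.14 in the same order. Against 0 h, 6 of 7 were called lower at 24 h in the KO-labelled libraries, where 21.6% of measured genes were called lower, and 1 of 7 in WT, where 13.9% were. With trimmed-mean scaling those counts were 2 of 7 and 0 of 7, with list medians of -0.95 in the KO-labelled and -0.47 in the WT libraries. Tcf12, an E protein, had 15.7, 6.41 and 4.18 FPKM in the KO-labelled libraries and 11.5, 7.54 and 7.20 FPKM in WT. Tcf3, which encodes E2A, had 19.25, 8.82 and 8.60 FPKM in the KO-labelled libraries and 19.7, 11.1 and 11.3 FPKM in WT. Lyl1, a hematopoietic factor, was the 1 called lower in both genotypes (-1.42 in the KO-labelled and -1.09 in the WT libraries, and -0.97 and -0.80 with trimmed-mean scaling). Tcf4, a further E protein, stood at 7.64 to 9.59 FPKM in all libraries.

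**Figure D4:**
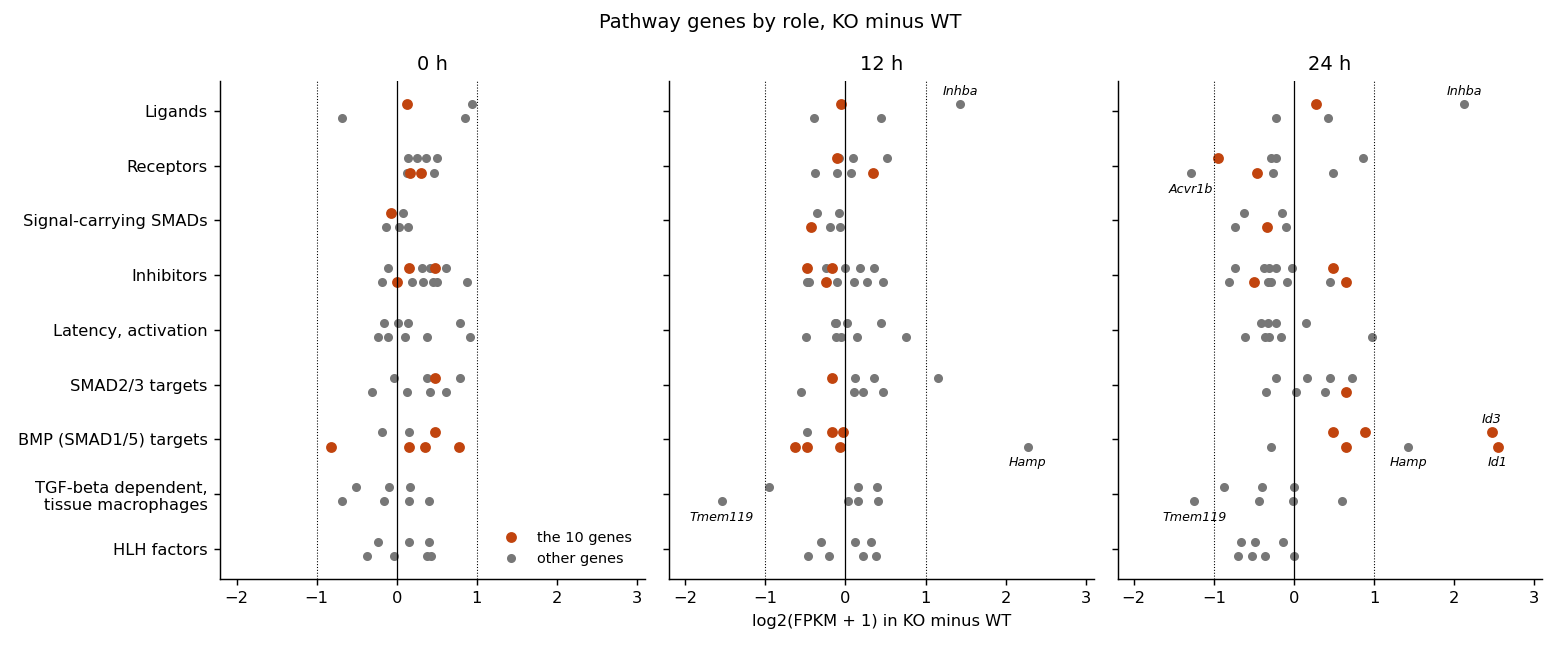
Difference in log2(FPKM + 1) between the KO-labelled and the WT library (x axis) for measured genes of each pathway list (rows) at 0, 12 and 24 h, with the 10 genes in orange, other genes in grey and dotted lines at the 2-fold rule; genes past it that the text describes are named, and a gene can stand in more than 1 row. No gene passes at 0 h; at 24 h Id1 (2.54) and Id3 (2.47) stand furthest right, with Inhba (2.12) and Hamp (1.43).

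Patterns over the 6 libraries were compared among 8846 genes that reached 5 FPKM. Among the genes most like Id1 by Pearson r of log2(FPKM + 1) were St3gal5 (0.96), Smad7 (0.96), Rab7b (0.96) and Tubb6 (0.94). Of these, Smad7 is also one of the 10 genes. Among those most like Id3 were Tpm3 (0.98), Ano8 (0.98), Trmt5 (0.98) and Baiap2 (0.97). Tpm3, of the cytoskeleton, spanned 289 to 387 FPKM over the libraries. Id1 and Id3 had an r of 0.88 with each other, and of 0.93 and 0.89 with Id2. With 6 points that share libraries and scaling, these values describe the data only.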

How the data were processed

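The deposited values are FPKM per gene for 6 libraries, made by the authors with Bowtie2 and RSEM on GRCm38, per the submitters' processing notes, and given per gene in 1 column per library, per the file headers; counts were not used here. Of the table's 17905 rows, 1 names no gene, 25 symbols turned into dates were restored, and 2 cells hold no number (Cd36 and Cers5 in KO at 0 h) and were left out. The 10 genes and all lists were chosen with earlier results of these data known.

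Differences are of log2(FPKM + 1), which understates changes of low genes, among genes reaching 1 FPKM in at least 1 library. A difference of at least 1 (2-fold) was called, without a test, because each group has 1 library. LPS against 0 h was tested with limma 3.58.1 (R 4.3.3; genotype and time, trended robust moderation, Benjamini-Hochberg adjustment over all genes). Nothing says that libraries came from separate animals, so limma's p-values measure only the spread between these libraries. The procedure was tested on simulated data. Genes named were the 10, the called genes of each list and up to 3 more of its highest mean; GENCODE M21 gave lengths. Alternatives were other pseudocounts (0.1, 5), other FPKM minima, a 1.5-fold rule, trimmed-mean and median-of-ratios factors, removal of the length trend (lowess span 0.3), no genotype term and leaving out each library. Some genes that this rule picks are not reported here.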

Additional observations from a re-analysis of the deposited data

Results flagged for a closer look

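Id1 and Id3 changed sides between times. The KO-labelled minus WT difference of Id1 in log2(FPKM + 1) was -0.63 at 12 h and 2.54 at 24 h, with 1 library per group on each side. That of Id3 was -0.82 at 0 h and 2.47 at 24 h. The difference between times was not tested, since no group has a replicate. For Id1 the 2 values were -0.55 and 2.30 with the length trend removed, and for Id3 they were -0.49 and 2.28, so both still changed sign.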

How the results depend on the processing

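No paired analysis was possible because each group holds 1 library, so groups share only the number 1. Of the 490 alternative values of the members' differences, 353 moved by less than counting error, 137 by more and 0 changed the sign of a call. The other FPKM minima cannot change a gene's own difference, so all of their values fell among the 353 in advance. The 353 is therefore no measure of stability. By a 1.5-fold rule the members called were 2, 1 and 5 for KO against WT at 0, 12 and 24 h, 7 for KO at 24 h of LPS, and 5 and 8 for WT at 12 and 24 h. With the length trend removed 1 was called at 0 h. Trimmed-mean and median-of-ratios scaling left 1 for KO at 12 h of LPS. Leaving out 1 library gave 1517 to 5767 limma calls at 12 h (4883 with all) and 2420 to 4465 at 24 h (3986). The 12 h limma effect ranged from -1.79 to 0.50 for Id1, from -0.42 to 0.27 for Id2 (each highest without the KO-labelled 12 h library) and from -0.015 (without WT 12 h) to 0.78 for Smad6 when 1 library was left out. Id2 turned to 0.29 under both scalings and 0.17 without the length trend. Tgfb1 turned to 0.0291 at 12 h and 0.0953 at 24 h (trimmed-mean) or 0.0280 and 0.0949 (median-of-ratios). The cause of these changes was not tested.

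All measured genes called for KO against WT at 0, 12 and 24 h numbered 488, 236 and 479; they were 867, 517 and 1107 with a pseudocount of 0.1, 145, 54 and 135 with 5, and 1992, 926 and 1951 at 1.5-fold; a minimum of 5 FPKM gave 128 at 12 h. The 3016, 3361, 3124 and 2484 calls of LPS (KO at 12 and 24 h, then WT) became 1524, 1662, 1750 and 1371 with a pseudocount of 5 and 5710, 6139, 5766 and 4717 at 1.5-fold. Trimmed-mean scaling split calls higher and lower as 340 and 150 at 24 h for KO against WT (256 and 223 unscaled), and for LPS as 1418 and 1104 (996 and 2020), 1483 and 1387 (872 and 2489), 1480 and 1268 (1113 and 2011), and 1145 and 1057 (883 and 1601).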

Other observations

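The interval between 12 and 24 h of LPS is given here for 5 of the 10 genes. Id1 differed by 0.22 over that interval in the KO-labelled libraries and by -2.95 in WT, and Id3 by -0.97 and -3.47. Smad6 differed by -0.85 in the KO-labelled libraries and by -1.81 in WT, while Tgfbr1 differed by -1.50 and -0.70. Tgfbr2 differed by -0.44 in the KO-labelled libraries and by 0.40 in WT. Id1, Tgfb1 and Tgfbr2 had opposite signs in the genotypes, and the other 7 genes the same sign. These are log2(FPKM + 1) differences between single libraries, with no test.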
